A study of Mus musculus with 21 samples.

Results

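Tuft cells are rare chemosensory cells of the intestinal epithelium. The 10 tuft cell genes described here (Dclk1, Trpm5, Pou2f3, Il25, Il17rb, Alox5ap, Ptgs1, Gfi1b, Avil and Rgs13) were chosen by name, with earlier results of these data known. They were followed in RNA sequencing of sorted mouse intestinal Lgr5 cells. They are 10 of the 37310 genes in the deposited tables. All 10 passed the filter on low counts that left 16050 genes for testing.

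A tuft cell senses luminal metabolites through a taste-like pathway that ends in calcium release and opening of the cation channel TRPM5. It answers with the cytokine IL-25, which acts on type 2 innate lymphoid cells, and with leukotrienes and prostaglandins. Type 2 cytokines then act back on crypt progenitors, and more tuft cells form. The transcription factor POU2F3 is required for tuft cells to develop. Lgr5 marks the stem cells at the crypt base, from which tuft cells and the other epithelial cells descend.

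RNA was sequenced from the brightest EGFP cells of dispersed crypts of Lgr5EGFPcre-ERT2 mice, in which a knock-in allele labels Lgr5 cells, sampled at 3 months of age after a purified diet begun at weaning. There were 3 libraries in each of 7 groups: NWD1VitD (NWD1 with vitamin D labelled as 2.3 IU/g, 2 males and 1 female), NWD1Ca (NWD1 with calcium labelled as 7.0 mg/g, 3 females), NWD2 (2 males and 1 female), NWD1 (2 males and 1 female), AIN_VdrKO (AIN76A diet, mice labelled as vitamin D receptor knockouts, 3 males), AINlowVitD (AIN with vitamin D labelled as 0.11 IU/g, 2 females and 1 male) and AIN (AIN76A, 2 females and 1 male). What NWD1 and NWD2 contain is not stated in the labels. The study asks what these diets do to intestinal Lgr5 cells.

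Gene counts came to 19889795 to 115435120 per library. The first principal component, with 43.9% of the variance, set NWD1VitD, NWD1Ca and AINlowVitD (71.2 to 79.2) apart from NWD2, NWD1 and AIN (-104.3 to -38.6), with AIN_VdrKO between them, and AIN 1, AIN 2 and NWD1 1 stood apart within their groups. The labels give no batch for these sets of libraries, so library set and diet cannot be told apart in NWD1VitD or NWD1Ca against NWD1 and in AINlowVitD against AIN, and AIN_VdrKO lay in neither set. AIN 1, AIN 2 and NWD1 1 lay at -38.6, -40.2 and -42.6, and the rest of their set at -104.3 to -90.0. This split falls unevenly over AIN, NWD1 and NWD2, so comparisons among these groups are partly confounded with it. Lgr5 itself, the label of the sort, measured 0.998 to 26.7 TPM. It had 1.73 to 2.83 TPM in NWD1Ca, 1.21 to 2.73 in NWD1VitD and 0.998 to 3.32 in AINlowVitD. In NWD1 it had 9.69 to 26.3 TPM, in NWD2 9.16 to 26.7, in AIN 1.62 to 11.0 and in AIN_VdrKO 4.45 to 7.18. In CPM, counts over the scaled library total, the groups lay nearer to each other. Lgr5 had 16.8 to 26.1 CPM in NWD1Ca and 13.8 to 27.1 in NWD1VitD, against 44.8 to 81.7 in NWD1. AINlowVitD (11.4 to 35.8 CPM) and AIN (9.49 to 45.3 CPM) overlapped. Mitochondrial rRNA took 2.95% to 5.07% of gene counts in NWD1VitD, NWD1Ca and AINlowVitD, and 0.234% to 0.965% in NWD2, NWD1 and AIN. Spike-ins took 1.35e-05% (AIN 2) to 24.7% (NWD1 1) of counts. In the libraries labelled AIN_VdrKO, Vdr measured 297, 482 and 247 CPM, against 338, 373 and 746 CPM in AIN (log2 fold change -0.56 ± 0.37, SE; adjusted p = 0.348, edgeR quasi-likelihood test). Gene-level counts cannot show a deletion of part of the gene, so the knockout label was neither met nor contradicted by them.

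Promoter windows of RefSeq (build GRCm38.p6, 250 bases before to 50 after the start site) were found for 7 of the 10 genes, in 8 windows. The octamer ATGCAAAT, the motif of POU factors, was searched on both strands because Pou2f3 is a member and the genes varied together. It stood in 0 of the 8 windows and in 1.74% of all 32851 windows of the table. Its core ATGCAAA, which lies within the octamer, stood in 1 of the 8, that of Avil, and in 4.63% of all windows. The windows of Avil, Trpm5 and Gfi1b, which passed the test in 1 comparison below, are shown with matches to the core or its reverse complement TTTGCAT in capitals. Avil lies at chr10:127000459-127000758 on the plus strand, and Trpm5 at chr7:143094593-143094892 and Gfi1b at chr2:28621933-28622232 on the minus strand.
Avil: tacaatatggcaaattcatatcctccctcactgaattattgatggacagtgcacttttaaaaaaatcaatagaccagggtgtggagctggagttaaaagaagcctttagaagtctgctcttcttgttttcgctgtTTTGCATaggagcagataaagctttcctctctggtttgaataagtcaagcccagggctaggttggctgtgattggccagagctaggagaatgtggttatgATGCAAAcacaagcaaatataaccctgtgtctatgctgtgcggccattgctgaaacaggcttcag
Trpm5: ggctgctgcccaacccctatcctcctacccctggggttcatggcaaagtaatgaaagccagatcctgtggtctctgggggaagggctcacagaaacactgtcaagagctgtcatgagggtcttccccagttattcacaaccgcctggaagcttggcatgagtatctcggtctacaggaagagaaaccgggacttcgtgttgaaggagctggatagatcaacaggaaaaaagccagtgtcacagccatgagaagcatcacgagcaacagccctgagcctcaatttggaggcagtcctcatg
Gfi1b: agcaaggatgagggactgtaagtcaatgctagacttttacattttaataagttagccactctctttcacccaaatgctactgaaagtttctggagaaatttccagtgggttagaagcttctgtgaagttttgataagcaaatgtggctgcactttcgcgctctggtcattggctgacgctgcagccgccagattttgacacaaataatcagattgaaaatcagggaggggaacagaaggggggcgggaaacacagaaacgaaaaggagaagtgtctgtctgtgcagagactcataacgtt
The Avil window held 2 matches, the first beginning at position -115 from the start site. The absence of these letters from the other windows says nothing about the factor.

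Levels were compared between genes in TPM, a scale that divides by gene length and gives each library the same total. Rgs13, a GTPase-activating regulator of G protein signalling, was the highest of the 10 in 20 of 21 libraries, at 68.0 to 1329 TPM (median 206.5 TPM). Alox5ap, the protein that presents arachidonic acid to 5-lipoxygenase, was highest in the other library, AIN_VdrKO 1, and ranged over 64.8 to 597 TPM. Avil, an actin-binding protein of the villin family, had 18.6 to 468 TPM.

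Below these 3 genes lay Trpm5 (7.97 to 292 TPM), Dclk1, a microtubule-associated kinase used as the standard tuft marker (9.13 to 178 TPM), Ptgs1, which encodes cyclooxygenase-1 (4.89 to 172 TPM), and Pou2f3 (5.18 to 140 TPM). Gfi1b, a zinc-finger transcriptional repressor, had 2.58 to 74.3 TPM and was number 8 of the 10 in 21 of 21 libraries. Il17rb, a subunit of the IL-25 receptor, had 1.55 to 54.1 TPM and was number 9 in 21 of 21. Il25 was lowest in 21 of 21 libraries, at 0.539 to 10.5 TPM and 13 to 248 counts, so its folds carried the most counting error. The order of the genes was nearly fixed, while the level of each gene differed widely between libraries. Avil, Trpm5 and Il17rb overlap Tsfm, Tssc4 and Actr8 on the opposite strand, and the kit does not mark strand, so reads from the overlap cannot be told apart.

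Over the 7 groups, compared gene by gene in CPM, which are counts over the TMM-scaled library total, NWD2 had the highest mean of 7 genes, NWD1 of Pou2f3 and Il25, and NWD1VitD of Alox5ap. Without NWD2 2, NWD2 had the highest mean of 0 genes and lay below NWD1 for each of those 7, with Dclk1 at 225 CPM in NWD2 and 403 CPM in NWD1. AIN_VdrKO had the lowest mean of 6 genes, and NWD1Ca of Pou2f3, Il17rb, Gfi1b and Rgs13. The ratio of the highest to the lowest group mean was largest for Trpm5, at 6.52, and smallest for Alox5ap, at 1.93. Of the 6 pairs of neighbours in the order of group means, the libraries of 6 overlapped for each gene except Gfi1b, for which NWD1 (18.6, 22.4 and 28.4 CPM) lay above AIN (14.0, 7.26 and 15.1 CPM). Neighbouring groups were thus mostly not separated by their libraries.

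**Figure D1:**
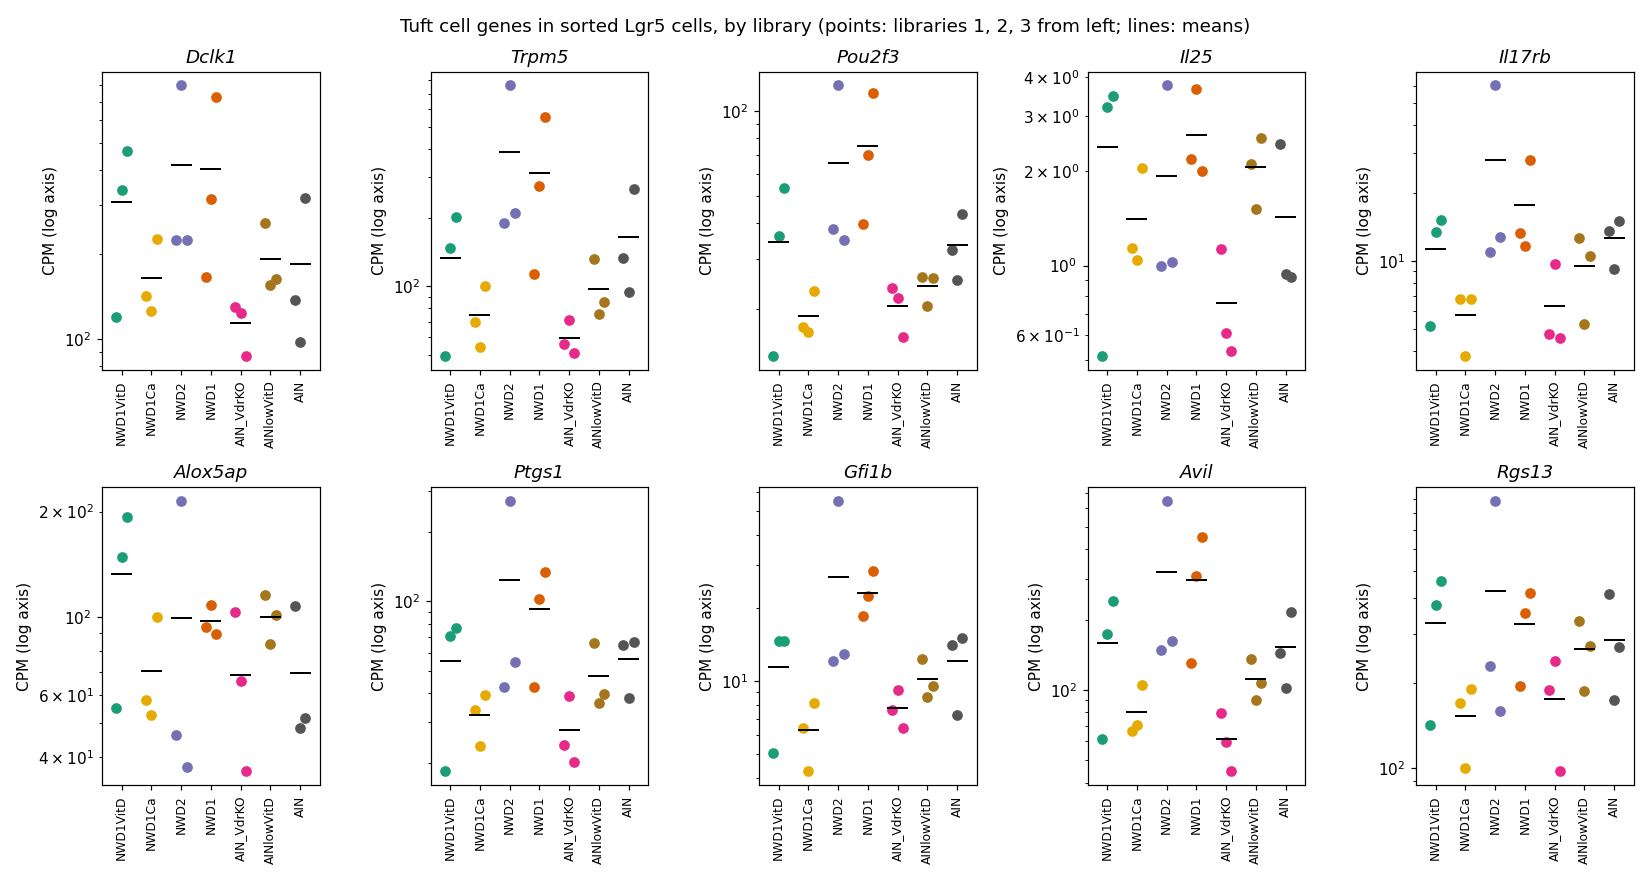
Level of each of the 10 genes in 21 libraries, in CPM on a log axis, with groups along the x axis, points for libraries 1, 2 and 3 from left to right and lines for group means. In NWD2 the second library stands above the other two for 10 of 10 genes, and in NWD1VitD the first stands below.

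The 10 genes moved together from library to library within groups. NWD2 2 was the highest NWD2 library for 10 of 10 genes, and its summed level of the 10 was 3823 CPM beside 944 and 912 CPM in NWD2 1 and NWD2 3. Dclk1 measured 224, 799 and 226 CPM in the NWD2 libraries, and Trpm5 189, 760 and 210 CPM. The highest NWD2 library exceeded the lowest by 3.50-fold (Pou2f3) to 6.36-fold (Ptgs1). The 10 genes took 0.0398% to 0.448% of a library's gene counts, with the largest share in NWD2 2.

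Other groups had such libraries too. NWD1VitD 1 was lowest of its group for 10 of 10 genes, with a summed level of 470 CPM beside 1325 and 1727 CPM in NWD1VitD 2 and NWD1VitD 3. NWD1Ca 3 was the highest of its group for 10 of 10 genes, AINlowVitD 2 the lowest for 10 of 10 and AIN_VdrKO 3 the lowest for 10 of 10. NWD1 3 was the highest for 8 genes, all but Il25 and Alox5ap, and its summed level was 2549 CPM beside 816 and 1570 CPM in NWD1 1 and NWD1 2. AIN 2 was the lowest AIN library for 9 genes. In bulk RNA, fewer cells of a type and less RNA per cell cannot be told apart.

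**Figure D2:**
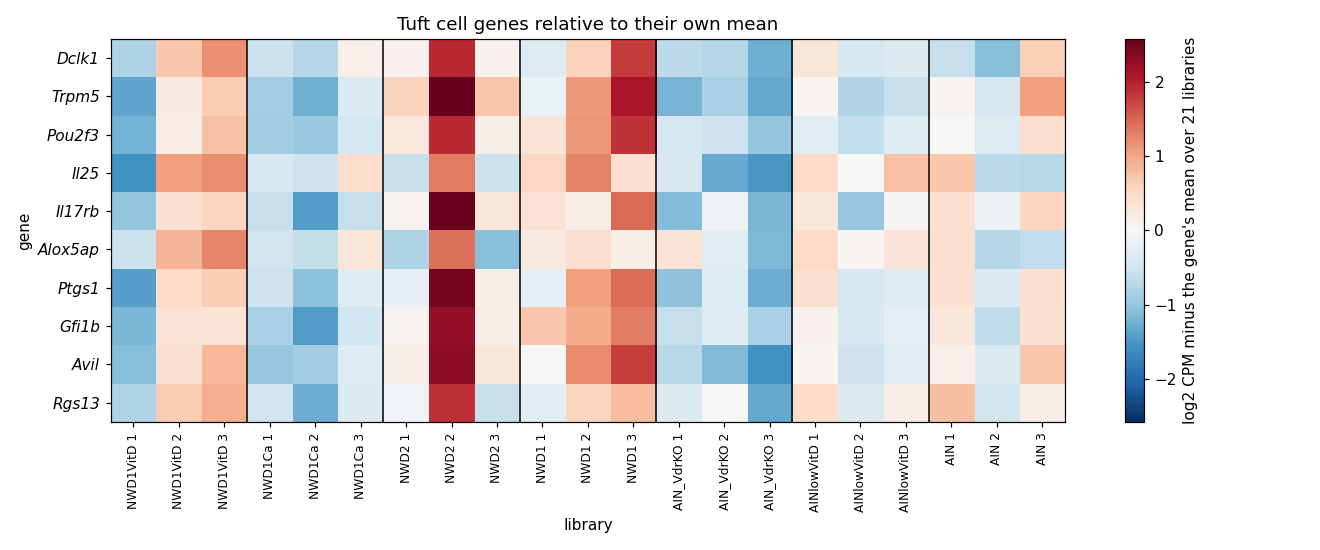
Level of each gene (rows) in each library (columns) as log2 CPM minus the gene's mean over 21 libraries; red is above and blue below that mean, and vertical lines separate groups. NWD2 2 is red for 10 of 10 genes, while NWD1VitD 1 and AIN_VdrKO 3 are blue for 10 of 10.

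Other tuft genes followed the same libraries. Of 59 further tuft genes listed from general knowledge (taste transduction, eicosanoid synthesis, transcription factors, signalling and surface proteins), 57 were in the files and 54 were tested. NWD2 2 was the highest of its group for 47 of the 54, while it was the highest for 27.2% of all tested genes. NWD1Ca 3 was the highest for 46 of 54 (28.8% of all genes) and NWD1VitD 3 for 43 (25.3% of all). NWD1VitD 1 was the lowest for 50 of 54 (34.2% of all) and AIN_VdrKO 3 for 44 (31.3% of all). In NWD1 the 54 genes followed the members less plainly, with NWD1 3 the highest for 33 (38.5% of all).

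After the group means were taken out, the 45 pairs of members correlated at Pearson's r of 0.584 (Dclk1 and Il25) to 0.986 (Dclk1 and Trpm5) over 21 libraries. These r are descriptions, since the points share libraries and their depth. Il25, the member with the fewest counts, had the lowest median r with the others, 0.738, and Ptgs1 the highest, 0.928.

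Of the 9 comparisons between groups, members passed the test in 1, NWD1Ca against NWD1, which addresses calcium added to the NWD1 diet, and there 4 of 10 fell: Pou2f3, Gfi1b, Trpm5 and Avil. In this comparison 14.9% of all tested genes fell and 30.5% changed in either direction, with library set and diet confounded. The median log2 fold change of the 10 members was -1.58, against -0.04 over all genes, and 10 of 10 were negative. Except where another tool is named, folds are fitted log2 values with their SE, and adjusted p-values come from edgeR's quasi-likelihood test.

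Among the transcription factors, Pou2f3 measured 17.2, 16.5 and 23.1 CPM in NWD1Ca, against 40.0, 69.6 and 115 CPM in NWD1. Its mean was 18.9 ± 3.63 CPM in NWD1Ca and 75.0 ± 38.0 CPM in NWD1 (SD, n = 3 each), a log2 fold change of -1.94 ± 0.51 (adjusted p = 0.00878, edgeR). Every NWD1Ca library lay below every NWD1 library, and NWD1 3 was far above the rest. Gfi1b measured 6.39, 4.24 and 8.15 CPM in NWD1Ca, against 18.6, 22.4 and 28.4 CPM in NWD1, and fell by 1.83 ± 0.54 on the log2 scale (adjusted p = 0.0167, edgeR). Its NWD1 libraries lay close together, so that this fall rested on NWD1 3 less than that of Pou2f3 did.

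Of the effectors, the taste channel gene Trpm5 measured 69.4, 54.0 and 99.9 CPM in NWD1Ca, against 113, 274 and 551 CPM in NWD1. Its log2 fold change was -2.06 ± 0.63 (adjusted p = 0.0195, edgeR), the most negative of the 10. The groups did not overlap, but NWD1Ca 3 and NWD1 1 were close. Avil measured 66.6, 70.6 and 104 CPM in NWD1Ca, against 130, 307 and 453 CPM in NWD1, with a log2 fold change of -1.83 ± 0.59 (adjusted p = 0.0239, edgeR). Its groups were likewise separate.

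The other 6 members did not pass. Il17rb measured 6.78, 3.78 and 6.80 CPM in NWD1Ca, against 13.3, 11.7 and 28.2 CPM in NWD1 (log2 fold change -1.60 ± 0.62, adjusted p = 0.0549, edgeR). Ptgs1 measured 33.8, 23.7 and 39.4 CPM in NWD1Ca, against 42.6, 102 and 134 CPM in NWD1 (-1.56 ± 0.65, adjusted p = 0.0728, edgeR). Rgs13 measured 170, 100 and 191 CPM in NWD1Ca, against 197, 355 and 420 CPM in NWD1 (-1.04 ± 0.60, adjusted p = 0.196, edgeR). The libraries of these 3 genes did not overlap between the groups either.

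Dclk1, Il25 and Alox5ap did overlap. Dclk1 measured 142, 125 and 227 CPM in NWD1Ca, against 166, 315 and 727 CPM in NWD1 (-1.27 ± 0.62, adjusted p = 0.124, edgeR). Il25 measured 1.14, 1.04 and 2.05 CPM in NWD1Ca, against 2.18, 3.66 and 2.00 CPM in NWD1 (-0.79 ± 0.72, adjusted p = 0.421, edgeR). Alox5ap measured 58.1, 52.8 and 100.4 CPM in NWD1Ca, against 94.1, 109 and 89.6 CPM in NWD1 (-0.35 ± 0.62, adjusted p = 0.692, edgeR). For 7 of 10 members every NWD1Ca library lay below every NWD1 library, which held for 24.4% of all tested genes.

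NWD1Ca holds females only, and NWD1 3 is the only female of NWD1. A fit without NWD1 3 thus sets females against males, with the sex term drawn from other groups. The 4 calls leaned on NWD1 3. Without it 0 of 10 members passed, with log2 fold changes of -1.46 for Gfi1b, -1.11 for Pou2f3, -1.02 for Avil and -0.91 for Trpm5 (adjusted p = 0.143 to 0.405 in edgeR), and Dclk1 stood at -0.02. Without NWD1Ca 1 the calls were Gfi1b and Pou2f3, and without NWD1Ca 2 Pou2f3 alone. Without NWD1 1, 6 members passed. Calls over all genes moved too, from 4903 of 16050 in the reported fit to 2524 of 16533 without NWD1 3. They came to 3593 of 16566 without NWD1Ca 1, 3618 of 16557 without NWD1Ca 2 and 5808 of 16279 without NWD1 1. Over log2(TPM + 1), on which genes were lower by a median of 1.15 than on the count scale, 10 of 10 members passed as lower, beside 51.5% of all genes.

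Markers of other cells differed in the same comparison, and their part in the result was not tested. Most of the markers that passed as higher were short genes. Short genes rose in median in this comparison, as given below with gene length. The summed level of 12 enterocyte genes was 21038 to 40684 CPM in NWD1Ca, against 2858 to 5741 CPM in NWD1, with 4 of 12 passing as higher. The sum of 8 goblet cell genes was 42604 to 49213 CPM in NWD1Ca, against 8852 to 21786 CPM in NWD1, and that of 12 enteroendocrine genes 3416 to 4659 CPM, against 429.8 to 2729 CPM. Single genes of these lists differed in direction: among goblet genes Tff3 passed as higher and Spdef as lower (median 0.22), and among enteroendocrine genes Sst, Cck and Sct passed as higher and Neurog3 as lower. The sum of 10 Lgr5 stem cell genes was 1404 to 2067 CPM in NWD1Ca, against 6638 to 9657 CPM in NWD1, with 4 of 10 passing as lower. Each of these 4 sums was separate between the groups. The sum of 8 Paneth cell genes overlapped, at 10697 to 20015 CPM in NWD1Ca, against 3707 to 11911 CPM in NWD1.

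Tuft cells share genes with blood cells, whose markers were low. A list of 15 leukocyte genes summed to 14.0 to 16.0 CPM in NWD1Ca, against 12.4 to 49.5 CPM in NWD1, with 1 to 5 of the 15 at 0 in NWD1Ca libraries and 5 in each NWD1 library. Over all libraries the sum reached 85.3 CPM in NWD2 2, of which the pan-leukocyte gene Ptprc gave 56.0 CPM, while Cd3e of T cells stayed at or under 1.00 CPM. Of 11 mast cell and basophil genes, the sum was 17.1 to 23.1 CPM in NWD1Ca, against 32.1 to 174 CPM in NWD1, most of it Kit, with Fcer1a and Mcpt4 at 0 in 21 of 21 libraries. The sum of 8 platelet genes was 8.76 to 12.9 CPM in NWD1Ca, against 0.736 to 1.74 CPM in NWD1, with Treml1 at 0 in 21 of 21 libraries. Of the 5 platelet genes tested, 1 passed, Gp1bb (3.19 ± 0.51, adjusted p = 0.000325, edgeR). Gp1bb also passed as higher in NWD1VitD against NWD1, AINlowVitD against AIN and AIN_VdrKO against AIN. Ptprc itself was highest in NWD2 2 and NWD1 3, as most members were.

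**Figure D3:**
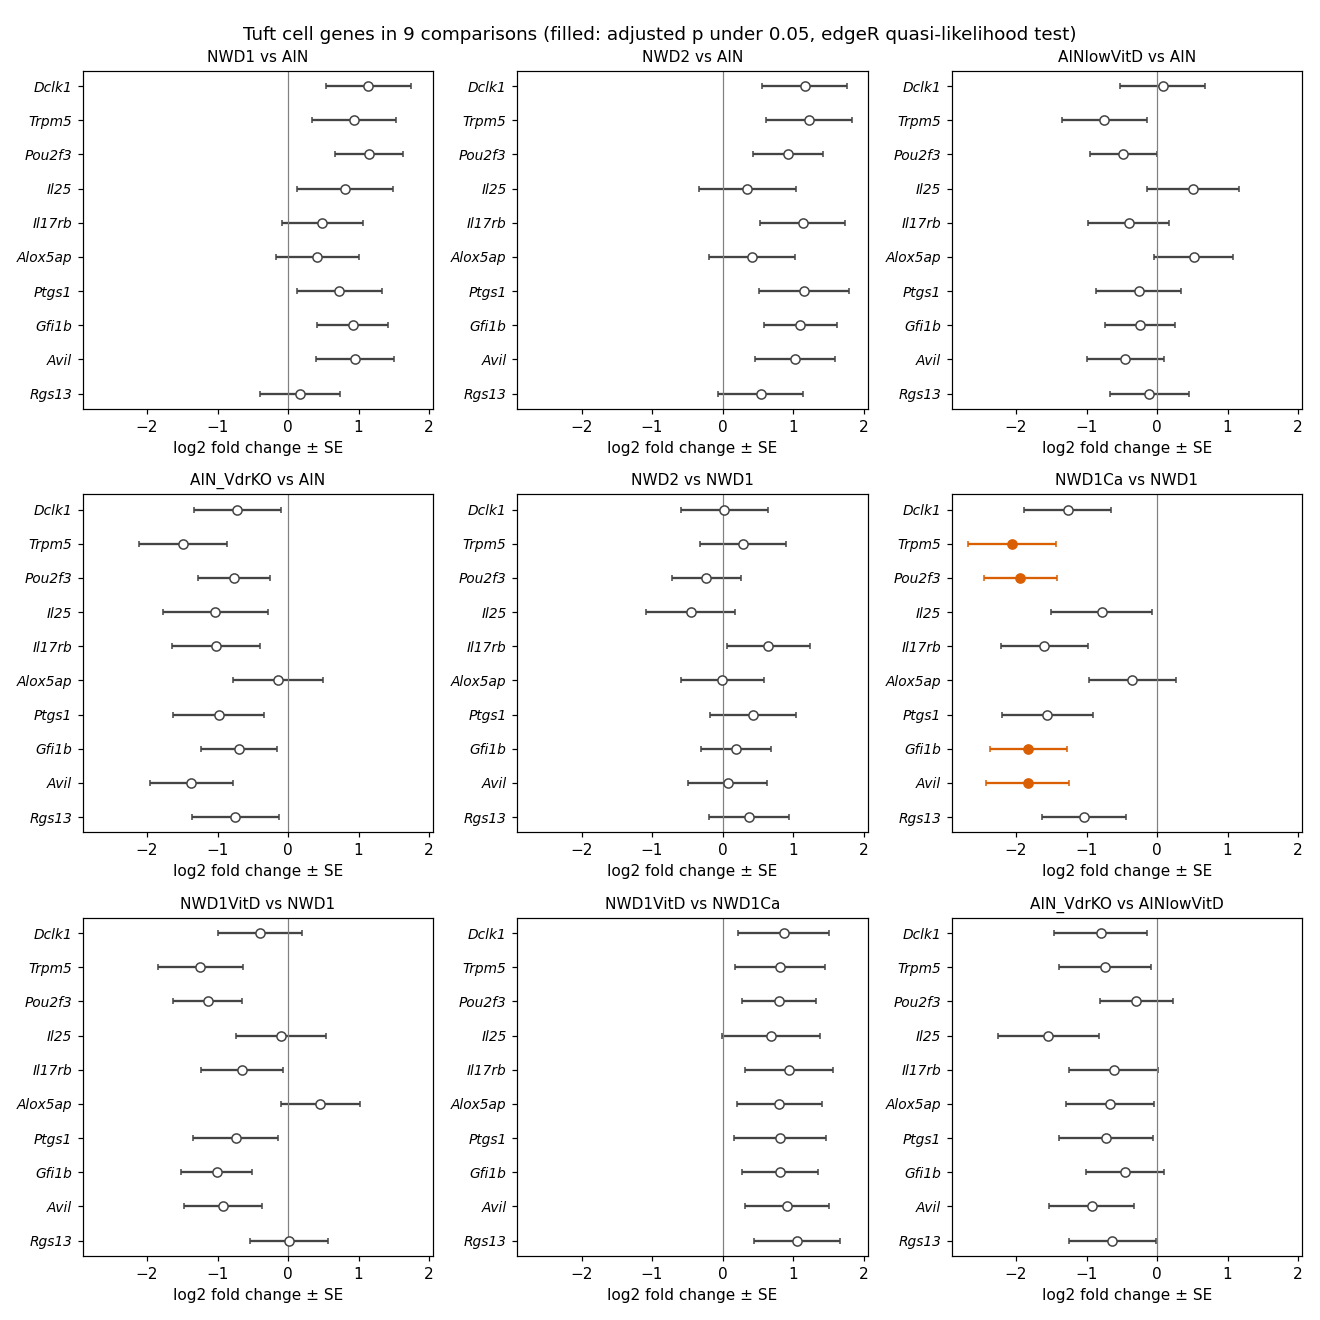
Log2 fold change (x axis) with SE of the 10 genes (y axis) in the 9 comparisons, first-named group over the second; filled points passed the adjusted threshold in edgeR. Only Pou2f3, Gfi1b, Trpm5 and Avil in NWD1Ca against NWD1 are filled.

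In NWD1VitD against NWD1, which addresses vitamin D in NWD1, no member passed the threshold, while 40.5% of all tested genes changed. Library set and diet are confounded in this comparison. The members had log2 fold changes of -1.25 to 0.45, with a median of -0.70, and 8 of 10 were negative. Trpm5 measured 49.3, 147 and 201 CPM in NWD1VitD, against 113, 274 and 551 CPM in NWD1 (-1.25 ± 0.60, adjusted p = 0.106, edgeR). Gfi1b measured 5.06, 14.6 and 14.6 CPM in NWD1VitD, against 18.6, 22.4 and 28.4 CPM in NWD1 (-1.01 ± 0.50, adjusted p = 0.113, edgeR), and was the only member without overlap (23.7% of all genes lay below in this way).

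Alox5ap was at the other end. It measured 55.3, 148 and 194 CPM in NWD1VitD, against 94.1, 109 and 89.6 CPM in NWD1 (0.45 ± 0.56, adjusted p = 0.539, edgeR). NWD1VitD 2 and NWD1VitD 3 were above the NWD1 libraries for this gene and NWD1VitD 1 below. Over log2(TPM + 1), on which genes were lower by a median of 1.38 than on the count scale, Alox5ap was -1.33 and the median of all genes -0.95. On that scale 10 of 10 members passed as lower, beside 60.3% of all genes.

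NWD1VitD against NWD1Ca lies within 1 set of libraries and compares the NWD1 diets that had vitamin D or calcium added. All 10 log2 fold changes were positive and lay close together, from 0.68 to 1.05 with a median of 0.81. The sign was not particular to tuft genes. All 12 enteroendocrine, 8 goblet and 8 Paneth cell genes were positive (medians 0.68, 0.49 and 1.61), as were 11 of 12 enterocyte genes. Of 10 Lgr5 stem cell genes 0 were positive (median -0.30), and the median of all genes was -0.03. Of the members 0 of 10 passed, as did 0% of all genes (372 genes at an unadjusted p under 0.05 in edgeR, and 3 adjusted calls in DESeq2). Rgs13 measured 142, 379 and 462 CPM in NWD1VitD, against 170, 100 and 191 CPM in NWD1Ca (1.05 ± 0.61, adjusted p = 1, edgeR). Il25 measured 0.514, 3.20 and 3.48 CPM in NWD1VitD, against 1.14, 1.04 and 2.05 CPM in NWD1Ca (0.68 ± 0.69, adjusted p = 1, edgeR). NWD1VitD 2 and NWD1VitD 3 were above the NWD1Ca libraries for both genes, and NWD1VitD 1 was not.

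NWD1 against AIN compares the NWD1 diet with the control diet within the other set. Here 10 of 10 folds were positive (0.16 to 1.15 on the log2 scale, median 0.86), 0 of 10 passed and 0.766% of all genes changed. Lgr5 stem cell genes were positive for 10 of 10 too (median 1.09), and enterocyte genes negative for 12 of 12 (median -2.41). The median of all genes was -0.04. Pou2f3 measured 40.0, 69.6 and 115 CPM in NWD1, against 32.2, 25.3 and 43.1 CPM in AIN (1.15 ± 0.48, adjusted p = 0.256, edgeR), and the groups overlapped by 1 library. Gfi1b, with 18.6, 22.4 and 28.4 CPM in NWD1 and 14.0, 7.26 and 15.1 CPM in AIN, was the only member without overlap (0.92 ± 0.50, adjusted p = 0.411, edgeR; 5.92% of all genes lay above in this way). Rgs13 measured 197, 355 and 420 CPM in NWD1, against 414, 174 and 269 CPM in AIN (0.16 ± 0.57, adjusted p = 0.932, edgeR), and its sign turned without AIN 2 or without NWD1 3. Without NWD1 3 the median of the 10 was 0.26. Because AIN 1, AIN 2 and NWD1 1 stood apart within the set, this comparison is partly confounded with that split.

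NWD2 against AIN had positive folds for 10 of 10 members as well (0.35 to 1.22 on the log2 scale, median 1.06). None passed, and 0% of all genes did (1099 genes at an unadjusted p under 0.05 in edgeR, and 4 adjusted calls in DESeq2). Without AIN 3, 840 genes passed in edgeR, and still 0 of 10 members. AIN 3 (-97.6) was the only AIN library near NWD2 (-94.3 to -90.0) on the first principal component. Without AIN 3, diet and the split within the set cannot be told apart. Trpm5 measured 189, 760 and 210 CPM in NWD2, against 133, 94.4 and 266 CPM in AIN (1.22 ± 0.61, adjusted p = 0.719, edgeR). Il25 measured 0.998, 3.75 and 1.03 CPM in NWD2, against 2.43, 0.940 and 0.922 CPM in AIN (0.35 ± 0.69, adjusted p = 0.922, edgeR). Only NWD2 2 stood clear of AIN for Trpm5, and the sign for Il25 turned without NWD2 2 or without AIN 3. Without NWD2 2 the median of the 10 members was -0.02.

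NWD2 against NWD1, again within 1 set, had a median of 0.13 with 7 members positive and 3 negative, and 0 of 10 passed beside 0.00623% of all genes. Il17rb measured 11.0, 60.1 and 12.8 CPM in NWD2, against 13.3, 11.7 and 28.2 CPM in NWD1 (0.65 ± 0.59, adjusted p = 0.711, edgeR). Il25 measured 0.998, 3.75 and 1.03 CPM in NWD2, against 2.18, 3.66 and 2.00 CPM in NWD1 (-0.45 ± 0.63, adjusted p = 0.819, edgeR). Without NWD2 2 the median of the 10 was -0.92 and Il17rb stood at -0.57. The comparisons with NWD1 share its 3 libraries, and those with AIN share the AIN libraries.

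AINlowVitD against AIN, which addresses low vitamin D in the control diet, gave the members a median of -0.25 on the count scale. Of the 10 members 7 were negative and 0 passed the threshold, while 31.3% of all genes changed. Library set and diet are confounded here as well. Trpm5 measured 132, 75.3 and 85.2 CPM in AINlowVitD, against 133, 94.4 and 266 CPM in AIN (-0.75 ± 0.60, adjusted p = 0.365, edgeR). Alox5ap measured 116, 83.9 and 102 CPM in AINlowVitD, against 108, 48.4 and 51.8 CPM in AIN (0.52 ± 0.56, adjusted p = 0.512, edgeR). The libraries of the groups overlapped for both genes. Over log2(TPM + 1), on which genes were lower by a median of 0.96 than on the count scale, Alox5ap stood at -0.54 and all genes at a median of -0.65. Trpm5, Il17rb, Avil, Gfi1b and Pou2f3 passed as lower there, 5 of 10 members beside 45.9% of all genes, a share near the background.

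In the libraries labelled AIN_VdrKO, 10 of 10 members had negative folds against AIN (-1.49 to -0.15 on the log2 scale, median -0.88), 0 of 10 passed, and 12.5% of all genes changed. Trpm5 measured 55.9, 71.0 and 51.0 CPM in AIN_VdrKO, against 133, 94.4 and 266 CPM in AIN (-1.49 ± 0.63, adjusted p = 0.128, edgeR). Avil measured 79.7, 59.7 and 44.6 CPM in AIN_VdrKO, against 143, 101 and 215 CPM in AIN (-1.38 ± 0.59, adjusted p = 0.134, edgeR). Pou2f3 measured 23.7, 21.9 and 15.9 CPM in AIN_VdrKO, against 32.2, 25.3 and 43.1 CPM in AIN (-0.77 ± 0.51, adjusted p = 0.355, edgeR). These 3 genes did not overlap between the groups, which held for 14.9% of all genes in this direction.

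Alox5ap hardly differed, at 103, 66.0 and 36.4 CPM in AIN_VdrKO, against 108, 48.4 and 51.8 CPM in AIN (-0.15 ± 0.64, adjusted p = 0.908, edgeR). Its sign turned without AIN 1 and without AIN_VdrKO 3. AIN_VdrKO holds males only, and the fit carries a term for sex. Between males and females 0 of 10 members passed and 0.0312% of all genes did, with a member median of 0.08.

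Against AINlowVitD, the libraries labelled AIN_VdrKO had negative folds for 10 of 10 members (-1.55 to -0.29 on the log2 scale, median -0.70), with 0 of 10 past the threshold and 3.07% of all genes changed. Il25 had 28, 14 and 75 counts in AIN_VdrKO, in libraries of unequal depth, or 1.13, 0.609 and 0.533 CPM, against 66, 25 and 80 counts or 2.11, 1.51 and 2.56 CPM in AINlowVitD (-1.55 ± 0.72, adjusted p = 0.234, edgeR). Dclk1 measured 130, 124 and 86.7 CPM in AIN_VdrKO, against 258, 156 and 163 CPM in AINlowVitD (-0.80 ± 0.66, adjusted p = 0.512, edgeR). Trpm5 (-0.74 ± 0.66) and Avil (-0.93 ± 0.61) were the other members without overlap, with adjusted p = 0.547 and 0.401 in edgeR, and 12.8% of all genes lay below in this way. Pou2f3, at -0.29 ± 0.52 (adjusted p = 0.786, edgeR), was nearest to 0. Over log2(TPM + 1), on which genes were higher by a median of 0.74, the member median was 0.23 and that of all genes 0.63. On the count scale the medians were -0.70 and 0.13, so the members lay below all genes on both scales.

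Among the 54 other tuft genes, NWD1Ca against NWD1 gave 14 lower and 3 higher (median -0.82). That is 25.9% lower and 5.56% higher, beside 14.9% and 15.6% of all genes, and 31.5% in either direction beside 30.5%. The lower genes with the smallest p were Aldh2, a mitochondrial aldehyde dehydrogenase, at 42.4 ± 3.52 CPM in NWD1Ca and 372 ± 130 CPM in NWD1 (SD, n = 3 each; -3.29 ± 0.38, adjusted p = 2.78e-05, edgeR), Nradd, Inpp5j, an inositol polyphosphate phosphatase (-2.23 ± 0.45, adjusted p = 0.00165, edgeR), and Sh2d7. Sh2d7, an SH2-domain gene known as a tuft marker, averaged 22.1 ± 5.56 CPM in NWD1Ca and 162 ± 111 CPM in NWD1. The lower genes also held the ETS factor Spib, the 5-lipoxygenase gene Alox5, Pla2g4a of arachidonic acid release and the fatty acid receptor Ffar3. The 3 higher genes were Gng13 of taste transduction (2.30 ± 0.73, adjusted p = 0.0235, edgeR) and the transcription factors Hmx3 and Sox4. Hmx3 stood at 2.50 ± 0.77 (adjusted p = 0.0195, edgeR) and Sox4 at 2.67 ± 0.84 (adjusted p = 0.0223, edgeR).

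Aldh2 and Nradd went the same way in the other comparisons across the sets. Aldh2 averaged 57.0 ± 22.0 CPM in NWD1VitD and 372 ± 130 CPM in NWD1, and 48.0 ± 9.46 CPM in AINlowVitD and 238 ± 40.8 CPM in AIN (adjusted p = 3.85e-05 and 0.000219, edgeR). It was also lower in AIN_VdrKO, at 23.9 ± 4.34 CPM, than in AIN (adjusted p = 5.92e-05, edgeR). Aldh2 is expressed in many cell types, so its level is not that of tuft cells alone.

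Listed tuft genes also rose in other comparisons across the sets, where no member passed. Gng13, the G protein gamma subunit of taste transduction, averaged 43.9 ± 21.3 CPM in NWD1VitD and 3.78 ± 1.98 CPM in NWD1 (3.52 ± 0.68, adjusted p = 0.000656, edgeR). It averaged 26.7 ± 8.49 CPM in AINlowVitD and 2.45 ± 1.54 CPM in AIN (3.45 ± 0.68, adjusted p = 0.00129, edgeR), and 3.74 ± 3.29 CPM in AIN_VdrKO and 26.7 ± 8.49 CPM in AINlowVitD (adjusted p = 0.0393, edgeR). Ltc4s of leukotriene synthesis rose in NWD1VitD against NWD1 and in AINlowVitD against AIN, and the homeobox gene Hmx3 in NWD1VitD against NWD1 (adjusted p = 0.00151, edgeR). In all, 8 of the 54 rose and 5 fell in NWD1VitD against NWD1, 24.1% of the list beside 40.5% of all genes. In AINlowVitD against AIN 9 rose and 3 fell, 22.2% beside 31.3%. Both shares were below those of all genes.

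In AIN_VdrKO against AIN, 2 of the 54 rose, the progenitor factors Sox4 (44.0 ± 7.69 CPM in AIN_VdrKO and 3.55 ± 4.80 CPM in AIN, adjusted p = 0.0107, edgeR) and Sox9 (135 ± 25.5 CPM in AIN_VdrKO and 48.7 ± 29.1 CPM in AIN, adjusted p = 0.0335, edgeR), and 3 fell, 9.26% of the list beside 12.5% of all genes. Sox4 also rose in NWD1Ca and NWD1VitD against NWD1 and in AINlowVitD against AIN (adjusted p = 0.0223, 0.00506 and 0.00782, edgeR). Its rise was thus not particular to AIN_VdrKO. None of the 54 passed in the comparisons within a set, namely NWD1VitD against NWD1Ca, NWD2 against NWD1, and NWD2 and NWD1 against AIN.

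The listed type 2 circuit around tuft cells holds 14 genes, 8 of them tested. Il4 and Il13, the cytokines that expand tuft cells, had 0 counts in 21 of 21 libraries. Stat6, the transcription factor downstream of both, fell in NWD1Ca against NWD1 and in NWD1VitD against NWD1, and averaged 87.8 ± 13.0 CPM in AINlowVitD and 215 ± 109 CPM in AIN (-1.27 ± 0.31, adjusted p = 0.00532, edgeR). In NWD1Ca against NWD1 the receptor genes Il4ra and Il13ra1 fell as well, and Areg, an epidermal growth factor ligand, rose.

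**Figure D4:**
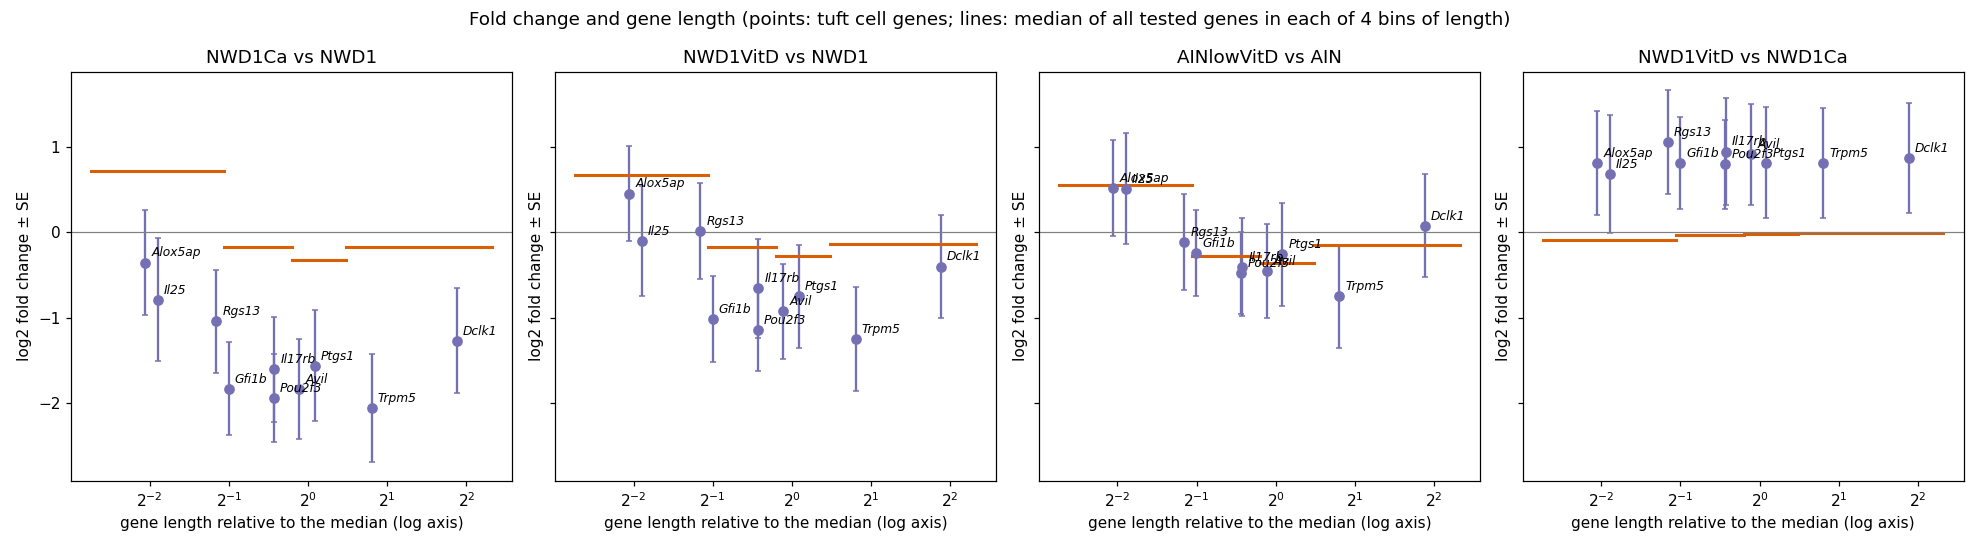
Log2 fold change with SE (y axis) of the 10 genes against gene length relative to the median tested gene (x axis, log scale) in 4 comparisons; horizontal lines are the median of all tested genes in each of 4 bins of length. In the 3 comparisons across the library sets the shortest bin lies above the others, and in NWD1VitD against NWD1Ca it lies at -0.08.

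Gene length went with the folds. Of 4 equal bins of the tested genes by length, the shortest had a median log2 fold change of 0.71 in NWD1Ca against NWD1, while bins 2 to 4 had -0.17, -0.32 and -0.17. In NWD1VitD against NWD1 the shortest bin had 0.67, in AINlowVitD against AIN 0.55, and in NWD1VitD against NWD1Ca, within a set, -0.08. Within the other set the medians ran the opposite way, with -0.32 in the shortest and 0.21 in the longest bin in NWD2 against AIN, and -0.20 and 0.12 in NWD1 against AIN. Alox5ap, Il25 and Rgs13 were in the shortest bin, at 0.241, 0.269 and 0.448 of the median length, and had the 3 folds nearest to 0 in NWD1Ca against NWD1. Gng13 and Ltc4s, at 0.211 and 0.201 of the median length, were shorter than every member. Among markers passing as higher in NWD1Ca against NWD1, Tff3, Sct, Fabp1, Sst, Cck, Fabp2 and Apoa1 stood at 0.135 to 0.337. These lie in the shortest bin, while Gp1bb (0.514) and Sis (1.76) do not. Neurog3, which passed as lower, lies in the shortest bin too (0.420). The lower stem cell genes Olfm4, Cdca7, Tnfrsf19 and Rnf43 stood at 0.702, 0.874, 1.35 and 1.79. Dclk1, at 3.69, and Trpm5, at 1.75, were in the longest bin. The part of length in the folds of the members and of these markers was not tested.

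Among the 10 genes whose pattern over the 21 libraries was most like the mean of the members were Spib (Spearman's rho 0.978), Siglec5 (0.962), Pea15a (0.958), Pygl (0.956), Cpm and Cd300lf (0.953 each), Pik3r5 (0.949), A4galt (0.948) and Tmem116 (0.945). They were ranked among 13104 candidate genes, and the same 10 were found without NWD2 2. Ranked by Pearson correlation of deviations from group means, 5 of the 10 stayed among the first 10. Spib, Siglec5 and Pik3r5 were on the list of other tuft genes. These rho are descriptions over libraries that share their groups.

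The ETS-family factor Spib measured 96.4, 428 and 113 CPM in NWD2, against 115, 194 and 280 CPM in NWD1. It measured 50.1, 48.4 and 72.5 CPM in NWD1Ca and 46.7, 54.8 and 32.7 CPM in AIN_VdrKO. NWD2 2 stood out as it did for the members, and NWD1 3 was the highest of NWD1.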

How the data were processed

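RNA of sorted Lgr5 cells was sequenced in 21 libraries, 3 per group, prepared with a SMART-Seq v4 kit and Nextera XT per the labels' protocols. The authors deposited whole-number counts per gene and, in a second table, TPM, which is divided by gene length and scaled to the same total in each library. STAR 2.4.2a, HTSeq 0.6.1, edgeR and build mm9 are named, without their settings, in the submitters' processing notes. The labels do not say whether libraries of a group came from separate mice, so p-values measure the spread between these libraries. The libraries carry no molecular identifiers, so PCR copies were counted.

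The deposited counts, without 92 spike-ins, were filtered with filterByExpr, scaled by TMM and fitted in edgeR 4.0.16 (R 4.3.3) with group and sex in 1 fit of 21 libraries. Quasi-likelihood tests were two-sided, with Benjamini-Hochberg adjustment over 16050 genes and a threshold of 0.05. A SE is the fold divided by the square root of F. The procedure was tested on simulated data. Alternatives were DESeq2 1.42.0, its size factors in edgeR, limma 3.58.1 on log2 of the deposited TPM plus 1 or plus 0.1, no filter, no sex term, a replicate block, only the groups compared, and left-out libraries.

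All 10 members were named. Of the other tuft and type 2 genes, up to 4 per comparison with the smallest p past the threshold were named, along with the genes of most similar pattern, except any not reported here. Further genes named among calls, among them Spib, Alox5, Pla2g4a, Ffar3, Ltc4s, Il4ra, Il13ra1, Areg, Tff3, Spdef, Sst, Cck, Sct, Neurog3 and Gp1bb, were chosen after their values were seen. The members and lists were chosen with earlier results of these data known.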

Additional observations from a re-analysis of the deposited data

How the results depend on the processing

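In NWD1Ca against NWD1, 4 members passed in the reported fit, while 8 passed with no filter and 8 in a fit of the compared groups alone. All genes called were 4903 of 16050, 5035 of 27918 and 5739 of 14153, in that order. On log2(TPM + 1) and on log2(TPM + 0.1) 10 members passed. With no sex term 6 passed, beside 6335 of 16050 genes. When 1 library was left out, 0 to 6 passed, beside 2524 to 5808 genes. Without AIN 1, AIN 2 and NWD1 1 the member median was -1.79, and without NWD1 1 and NWD1 2 it was -2.17. In NWD1VitD against NWD1, 0 members passed in the reported fit, but 5 passed with no filter, beside 6486 of 27918 genes. On log2(TPM + 1) and on log2(TPM + 0.1) 10 passed there. When 1 library was left out, 0 to 2 passed, beside 4864 to 6889 genes. Without AIN 1, AIN 2 and NWD1 1 the member median was -0.92, and without NWD1 1 and NWD1 2 it was -1.51. With no filter, 2 members passed in NWD1 against AIN, 1 in NWD2 against AIN and 3 in AIN_VdrKO against AIN. Of 27918 genes 969, 157 and 2387 passed there. In AIN_VdrKO against AIN, 1 member passed in a fit of the compared groups, beside 383 of 14591 genes. Without AIN 1, AIN 2 and NWD1 1 the member median of that comparison was -1.24. In AINlowVitD against AIN, 5 passed on log2(TPM + 1) and 5 on log2(TPM + 0.1), beside 45.9% and 49% of all genes lower. In the comparisons with 10 calls on these scales, 51.5% to 60.7% of all genes passed as lower. The causes were not tested.

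Leaving out 1 library gave Rgs13 in NWD1 against AIN -0.24 to 0.66, Il25 in NWD2 against AIN -0.46 to 0.98, Il17rb in NWD2 against NWD1 -0.57 to 1.23 and Alox5ap in AIN_VdrKO against AIN -0.57 to 0.40. Alox5ap there stood at 0.51 in a fit of the compared groups and 0.36 without AIN 1, AIN 2 and NWD1 1, and Il17rb at -0.32 without NWD1 1 and NWD1 2. On log2(TPM + 1) and log2(TPM + 0.1), Alox5ap was -0.54 and -0.55 in AINlowVitD against AIN, and -1.33 and -1.33 in NWD1VitD against NWD1. In AIN_VdrKO against AINlowVitD these scales gave Trpm5 0.26 and 0.28, Avil 0.044 and 0.048, Dclk1 0.18 and 0.20, and Pou2f3 0.60 and 0.66.

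The replicate block left 4 members in NWD1Ca against NWD1 and 0 elsewhere. Libraries with the same number had a mean r of 0.0196 over 63 pairs, so the numbers were not taken to pair libraries. Il25, with 13 to 248 counts, was the member most limited by depth.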
